A study of Mus musculus with 8 samples.

Results

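The genes described here are the 9 whose products form or relay the B cell antigen receptor signal: Cd79a, Cd79b and Ms4a1 at the surface, the kinases Lyn, Syk and Btk, the adaptors Blnk and Pik3ap1, and the phospholipase Plcg2. They were taken by symbol, and all 9 were found, as 11 transcript rows (Lyn and Syk with 2 each, the others with 1) of 23517 rows and 17738 symbols. Total spleen RNA was sequenced from 4 TTPΔARE and 4 WT mice, all male, of strain C57BL/6 and 8 to 12 weeks old, untreated, with 1 animal per library. TTPΔARE mice carry a change in Zfp36, the gene of tristetraprolin (TTP), a protein that binds AU-rich elements of mRNAs and speeds their decay: the AU-rich element of the Zfp36 mRNA itself is deleted, in every cell of the animal, and zygosity is not given in the sources used here. Levels are FPKM as deposited, that is, fragments scaled to transcript length and to library size. Levels of different genes are set side by side on this scale, although how fragments were counted is not stated in the sources used here.

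The B cell receptor is an immunoglobulin held in the membrane with a heterodimer of Cd79a (Igα) and Cd79b (Igβ), whose tails carry the tyrosine motifs that start the signal. Lyn, a Src family kinase, phosphorylates these tails and also those of inhibitory receptors. Syk docks on the phosphorylated tails and phosphorylates Blnk, the scaffold on which Btk activates Plcg2, the enzyme that opens the calcium and diacylglycerol branches. Pik3ap1 (BCAP) links the receptor to PI3 kinase, and Ms4a1 encodes CD20, a B cell membrane protein. Cd79a, Cd79b, Ms4a1 and Blnk mark B cells in spleen, while Lyn, Syk, Btk, Plcg2 and Pik3ap1 are also expressed by myeloid cells.

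Promoter sequences are shown for the member with the smallest p in each class, as the stretch from 250 bases before to 50 bases after the annotated start (RefSeq, GRCm38.p6, the patch release of mm10), so that the DNA behind the values below can be read. Capitals mark matches, on either strand, to 3 motifs known from B cell promoters: the octamer ATGCAAAT, the EBF1 half-site pair CCCNNGGG and the ETS core AGGAAG. The table held 7 windows for 6 of the 9 genes, with none for Cd79b, Ms4a1 and Lyn. Cd79a (surface protein) is at chr7:24897247-24897546 on the + strand, Btk (kinase) at chrX:134583091-134583390 on the - strand and Blnk (adaptor) at chr19:40994172-40994471 on the - strand. The Btk window lies inside the Btk gene, which ends at 134583628, so its start is not the outermost start of that gene.
Cd79a: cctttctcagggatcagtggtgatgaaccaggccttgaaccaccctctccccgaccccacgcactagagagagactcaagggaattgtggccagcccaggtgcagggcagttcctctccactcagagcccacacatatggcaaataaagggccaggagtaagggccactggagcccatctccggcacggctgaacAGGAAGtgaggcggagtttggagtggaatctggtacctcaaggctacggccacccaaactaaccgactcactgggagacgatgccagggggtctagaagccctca
Btk: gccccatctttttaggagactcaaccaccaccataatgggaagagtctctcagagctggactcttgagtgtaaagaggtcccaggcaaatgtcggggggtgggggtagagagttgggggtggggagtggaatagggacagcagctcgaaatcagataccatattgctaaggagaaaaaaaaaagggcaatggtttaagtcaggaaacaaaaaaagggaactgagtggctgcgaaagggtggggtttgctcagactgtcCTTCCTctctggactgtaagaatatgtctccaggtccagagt
Blnk: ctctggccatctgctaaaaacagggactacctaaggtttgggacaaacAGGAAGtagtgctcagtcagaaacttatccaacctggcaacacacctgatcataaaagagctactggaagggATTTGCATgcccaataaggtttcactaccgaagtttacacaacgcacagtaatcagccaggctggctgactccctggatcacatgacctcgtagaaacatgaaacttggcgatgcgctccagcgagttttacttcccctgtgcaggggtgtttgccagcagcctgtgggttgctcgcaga

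The Cd79a window held 1 ETS core, which starts 55 bases before the transcription start. The Cd79a promoter of the mouse is known for joint binding of Pax5 and Ets1. The marked core was not identified as the site of that binding. Btk held 1 ETS core, after the start used for its window, and Blnk 1 ETS core and 1 octamer. An ETS core was present in 35.4% of all 32851 promoter windows of this length, an octamer in 1.74% and an EBF1 pair in 13.7%. The EBF1 pair was not matched in any of the 7 windows, Plcg2 and both Syk windows held no match to the 3 motifs, Pik3ap1 held 1 ETS core, and no matches overlapped. Only exact matches were counted, so a window without a match can still hold a variant of the site, in Cd79a too. Binding was not measured. For the AU-rich element, the heptamer TATTTAT was searched in the annotated 3′ UTRs (GENCODE M21). None of the 11 transcripts held it in 3′ UTRs of 246 (Blnk) to 2997 (Syk) bases, against 27.1% of 15137 tested transcripts with a 3′ UTR. The share was 12.0% of 7802 transcripts with under 1000 bases there and 43.1% of 7335 with 1000 or more.

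The table gives no depth. From the steps between its lowest values, the libraries were estimated at 28.3 to 32.3 M fragments, at which each member rested on at least 2194 fragments in each spleen (Btk the fewest) and counting error was at most 2.14% of a level, which is below the differences of Cd79a and Cd79b. Such errors cover counting alone.

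Zfp36 was read first as a check of the labels. It stood at 57.5, 46.1, 55.1 and 52.9 FPKM in TTPΔARE replicates 1 to 4, against 37.9, 42.1, 44.9 and 36.4 FPKM in WT replicates 1 to 4. All TTPΔARE spleens were above all WT spleens (log2 difference 0.39, SE 0.0848, limma adjusted p = 0.0323, and p = 0.0286 in an exact two-sided permutation test over 70 assignments, the smallest it can give). The limma call was lost without TTPΔARE replicate 1, 3 or 4 or WT replicate 1 or 4. The FPKM covers the whole transcript and not the deleted element, so this level does not by itself show the deletion.

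Across the 9 genes the TTPΔARE mean was below the WT mean in each, by small amounts: 15.0% for Cd79a, 17.1% for Cd79b and 4.74 to 9.21% for the other 7 genes, from the fitted log2 differences. By limma, 0 of the 11 transcripts passed an adjusted p of 0.05, where 331 of 16608 transcripts tested, 1.99%, passed as lower. Unadjusted by limma, 3 of the 9 genes (Cd79a, Cd79b and Btk, all lower) had a p under 0.05, against 21.8% of 12410 symbols tested, in either direction. The groups did not overlap for 1 of the 11 transcripts, that of Cd79a, against 5.99% of all transcripts tested that lay lower in TTPΔARE without overlap. The median log2 difference of the 9 genes, 1 transcript each, was -0.08, against 0.0048 over 12410 symbols tested, of which 48.4% were below 0. Gene positions below are those of whole genes in GRCm38.p6. The 9 values come from the same 8 spleens and are not independent of each other.

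**Figure D1:**
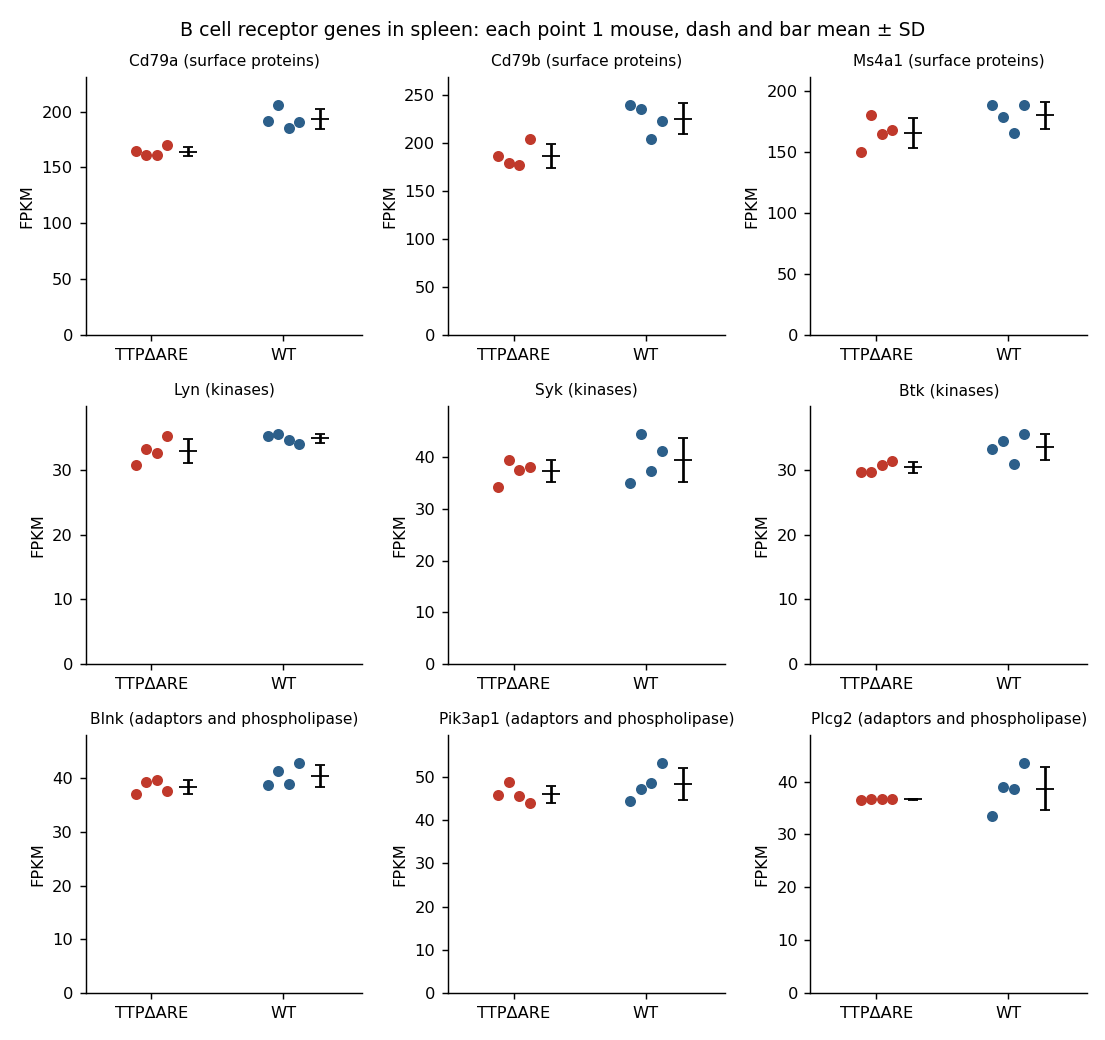
FPKM of each of the 9 genes (y axis, from 0; for Lyn and Syk the transcript of the higher mean) in each TTPΔARE and WT mouse, with the mean and SD beside the points. The TTPΔARE points of Cd79a, 160.9 to 169.9, lie below all WT points, and those of Plcg2, 36.5 to 36.8, lie inside the WT range.

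The surface proteins were the most abundant members and held the largest differences. Cd79a (NM_007655, gene at chr7:24897497-24901858) stood at 164.4, 161.4, 160.9 and 169.9 FPKM in TTPΔARE replicates 1 to 4, against 191.1, 206.0, 185.4 and 190.9 FPKM in WT replicates 1 to 4. Every TTPΔARE spleen was below every WT spleen. The means were 164.2 ± 4.15 FPKM in TTPΔARE and 193.4 ± 8.84 FPKM in WT (SD, n = 4 each), a log2 difference of -0.23 with an SE of 0.0586 (95% interval -0.36 to -0.11, limma adjusted p = 0.0501). By unadjusted p it was the 667th of 16608 transcripts, where 664 passed, so its side of the threshold turned on small choices. Over 19 alternative settings its adjusted p ran between 0.0480 and 0.613, and it passed in 3 of them.

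Cd79b, the partner chain (NM_008339, chr11:106311341-106314562), had 186.9, 179.1, 176.9 and 203.96 FPKM in TTPΔARE replicates 1 to 4, against 239.8, 235.1, 203.91 and 222.6 FPKM in WT replicates 1 to 4. The groups touched only where TTPΔARE replicate 4 and WT replicate 3 met. Means were 186.7 ± 12.3 FPKM in TTPΔARE and 225.3 ± 16.0 FPKM in WT (SD, n = 4 each), with a log2 difference of -0.27, SE 0.0736, that did not pass (95% interval -0.43 to -0.11, limma adjusted p = 0.0664). Without WT replicate 3 it passed (log2 -0.32, adjusted p = 0.0453), and over its 19 alternatives the adjusted p ran between 0.0453 and 0.699. The level ratio of Cd79b to Cd79a, both per length, was 1.10 to 1.20 in TTPΔARE and 1.10 to 1.25 in WT spleens, so the chains kept overlapping ratios in the groups.

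Ms4a1, the CD20 gene (NM_007641, chr19:11249679-11266149), had 149.9, 179.8, 164.6 and 167.9 FPKM in TTPΔARE replicates 1 to 4, against 188.2, 178.2, 165.0 and 188.4 FPKM in WT replicates 1 to 4. The groups overlapped, with TTPΔARE replicate 2 above WT replicates 2 and 3. The log2 difference was -0.12, SE 0.0729, and did not pass (95% interval -0.28 to 0.04, limma adjusted p = 0.381). Without TTPΔARE replicate 1 it was -0.07. The interval over all 8 spleens holds the Cd79a and Cd79b estimates, and whether Ms4a1 differed less than they did was not tested.

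Among the kinases, Btk lay furthest from WT. Btk, the Tec family kinase that activates Plcg2 (NM_013482, chrX:134542334-134583628), stood at 29.7, 29.8, 30.8 and 31.5 FPKM in TTPΔARE replicates 1 to 4, against 33.4, 34.6, 30.9 and 35.7 FPKM in WT replicates 1 to 4. Only WT replicate 3 lay within the TTPΔARE range. The log2 difference of -0.14 (SE 0.0575, 95% interval -0.27 to -0.01) did not pass (limma adjusted p = 0.195).

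Lyn, the first kinase of the cascade (chr4:3678068-3791612), had 30.8, 33.2, 32.7 and 35.3 FPKM for its transcript NM_001111096 in TTPΔARE replicates 1 to 4, against 35.3, 35.6, 34.7 and 34.1 FPKM in WT replicates 1 to 4. TTPΔARE replicate 4 lay among the WT spleens and the other 3 below them. The WT values were close together (SD 0.683, against 1.84 in TTPΔARE, n = 4 each), and the log2 difference of -0.08 did not pass (95% interval -0.20 to 0.04, limma adjusted p = 0.441). Without TTPΔARE replicate 1 it was -0.050. The other Lyn transcript, NM_010747, gave -0.08 (adjusted p = 0.471). Both Lyn rows had nearly the same level, with a ratio of 1.02 to 1.04 in TTPΔARE and 1.01 to 1.05 in WT spleens, and they share most exons, so they are not separate evidence.

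Syk, which binds the phosphorylated tails (chr13:52582610-52648792), had 34.2, 39.4, 37.6 and 38.0 FPKM for its transcript NM_001198977 in TTPΔARE replicates 1 to 4, against 35.0, 44.5, 37.2 and 41.2 FPKM in WT replicates 1 to 4. The groups overlapped between 35.0 and 39.4 FPKM, and WT replicates 2 and 4 were above every TTPΔARE spleen. Log2 differences were -0.08 (95% interval -0.25 to 0.10, limma adjusted p = 0.634) and -0.11 (95% interval -0.27 to 0.06, adjusted p = 0.465) for NM_001198977 and NM_011518, which also share exons. The value of NM_001198977 was -0.13 without WT replicate 1 and -0.018 without WT replicate 2.

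The adaptors and the phospholipase each had a difference of -0.07, which moved with single spleens: without WT replicate 4 and without WT replicate 1, Plcg2 stood at -0.012 and -0.14, Pik3ap1 at -0.023 and -0.11, and Blnk at -0.046 and -0.09. Blnk, the scaffold (NM_008528, chr19:40928927-40994221), stood at 37.1, 39.3, 39.7 and 37.6 FPKM in TTPΔARE replicates 1 to 4, against 38.7, 41.4, 38.9 and 42.9 FPKM in WT replicates 1 to 4. The ranges overlapped, and the log2 difference of -0.07 did not pass (95% interval -0.20 to 0.05, limma adjusted p = 0.491). Pik3ap1 (NM_031376, chr19:41272541-41385102) had 45.8, 48.8, 45.5 and 43.99 FPKM in TTPΔARE replicates 1 to 4, against 44.5, 47.2, 48.7 and 53.4 FPKM in WT replicates 1 to 4, again with overlap, WT replicate 4 being the highest of all (log2 -0.07, 95% interval -0.21 to 0.07, limma adjusted p = 0.596).

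Plcg2, which cleaves membrane lipid to release calcium-mobilizing messengers (NM_172285, chr8:117498275-117635142), had 36.5, 36.6, 36.7 and 36.8 FPKM in TTPΔARE replicates 1 to 4, against 33.6, 38.9, 38.7 and 43.6 FPKM in WT replicates 1 to 4. The TTPΔARE spleens lay within 0.317 FPKM of each other and inside the WT range (SD 0.134 in TTPΔARE and 4.10 in WT, n = 4 each). The difference of spread was not tested. The log2 difference was -0.07 (95% interval -0.23 to 0.09, limma adjusted p = 0.634).

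**Figure D2:**
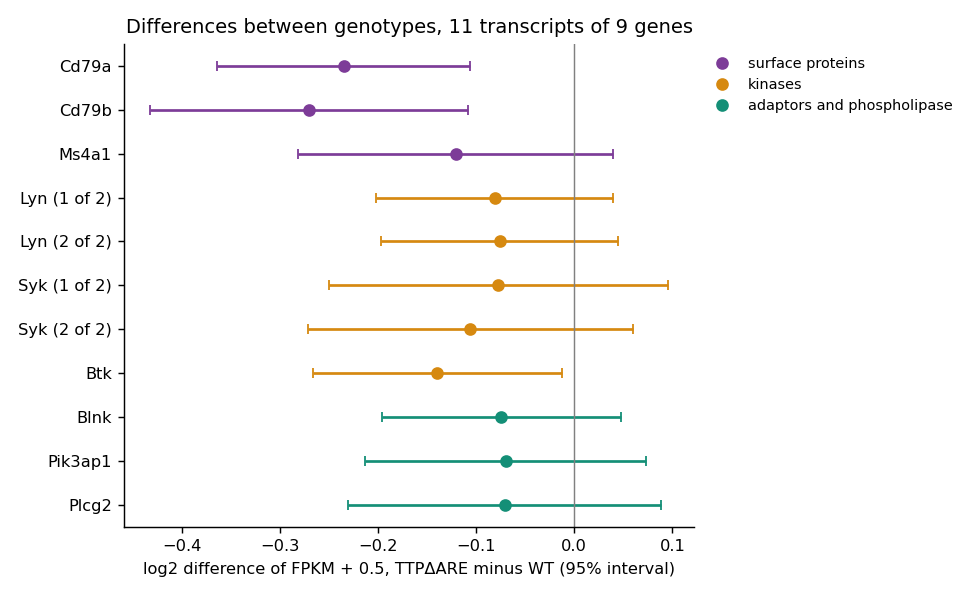
Log2 difference of FPKM + 0.5, TTPΔARE minus WT (x axis), with its 95% interval from limma, for the 11 transcripts (y axis; for Lyn and Syk, 1 of 2 and 2 of 2 are their first and second transcripts in accession order). The intervals of Cd79a, Cd79b and Btk lie below 0, at -0.23, -0.27 and -0.14, and the other 8 cross it.

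Set against each other, the surface proteins had a median log2 difference of -0.23 (-0.27 to -0.12). The kinases, adaptors and phospholipase had a median of -0.08 (-0.14 to -0.07). These ranges overlapped, since Btk lay further from WT than Ms4a1. The mean log2 level of Cd79a, Cd79b and Ms4a1 was 7.43 ± 0.0517 in TTPΔARE and 7.64 ± 0.0736 in WT, and that of the other 6 genes 5.22 ± 0.0357 in TTPΔARE and 5.30 ± 0.0798 in WT (SD, n = 4 each). The gap between the classes was thus 2.22, 2.20, 2.17 and 2.27 in TTPΔARE replicates 1 to 4, against 2.47, 2.34, 2.27 and 2.26 in WT replicates 1 to 4, a difference of -0.12. TTPΔARE replicate 4 lay between WT replicates 3 and 4, and WT replicate 1 stood above all others. Without WT replicate 1 the difference was -0.077. With the mean level of erythroid markers as a covariate the difference was -0.046, and with that of B lineage markers -0.21. No test was made of this contrast, since the genes were chosen with results of these spleens known.

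Some pairs of the 9 genes varied together from mouse to mouse and others did so less. As a description over 8 spleens, Pearson r of log2 levels was 0.93 between Cd79a and Cd79b, 0.84 between Cd79a and Btk and 0.85 between Cd79b and Btk, and 0.85 between Pik3ap1 and Plcg2. Between the surface proteins and Blnk, Pik3ap1 and Plcg2 it ran between 0.09 (Cd79b with Pik3ap1) and 0.67 (Ms4a1 with Blnk), with 0.57 for Cd79a with Blnk and 0.34 for Cd79a with Plcg2. With each group's mean removed, r was 0.74 for Cd79a with Cd79b, 0.56 for Cd79a with Btk and 0.59 for Cd79b with Btk. Computed the same way, it was 0.83 for Pik3ap1 with Plcg2, 0.70 for Blnk with Plcg2 and 0.77 for Syk with Blnk. Between the surface proteins and Blnk, Pik3ap1 and Plcg2 it then ran between -0.55 (Cd79b with Pik3ap1) and 0.51 (Ms4a1 with Blnk). These values share libraries and depth.

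Among 12410 symbols, the levels most like those of Cd79a over the 8 spleens were those of Fam65b (r = 0.99), the lymphocyte GTPase Gimap3 (0.98) and the NADPH oxidase subunit Ncf1 (0.98). Their log2 differences were -0.39, -0.24 and -0.25, values that likeness to a gene with separate groups favours, so no test is given for them. Closest to Cd79b were Pole4, B3gnt5 and the adaptor Sh3bp2 (r = 0.98 each), and closest to Ms4a1 were Gm18853, the adaptor Lax1 and AU019823 (0.98, 0.95 and 0.95). For the kinases they were Sgk3, Ttc17 and D17H6S53E with Lyn (0.95 to 0.96), Epc1, Map3k3 and Apobec3 with Syk (0.93 to 0.95) and Aida, Trim12c and Cdc40 with Btk (0.96 to 0.97). For the others they were Smg6, Brwd1 and Aff4 with Blnk (0.94 to 0.96), Polr3b, Ssh1 and Lrp6 with Pik3ap1 (0.97 to 0.98) and Apc, 9930111J21Rik2 and Scaf11 with Plcg2 (0.96 each).

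Levels of B lineage and erythroid markers are given beside these values. In bulk spleen RNA, fewer B cells and less of an mRNA per B cell cannot be told apart. Of 14 B lineage markers, all detected, 1 fell (Ralgps2, to 3.24 ± 0.121 FPKM in TTPΔARE, against 4.71 ± 0.264 FPKM in WT, SD, n = 4 each; log2 -0.48, limma adjusted p = 0.00493) and 13 did not pass. Of the 14, 12 had a value below 0, and the median was -0.14. By limma, 5 of the 14 had an unadjusted p under 0.05, against 21.8% of 12410 symbols tested, in either direction. Their summed level was 849.4 to 889.8 FPKM in TTPΔARE and 875.8 to 979.1 FPKM in WT. Their mean log2 level was 5.28 to 5.36 in TTPΔARE and 5.39 to 5.56 in WT, without overlap of these means. Taken singly, 4 of the 14 markers lay lower in TTPΔARE without overlap, against 5.99% of all transcripts tested. With the mean log2 level of the 14 markers as a covariate, Cd79a stood at -0.19 (limma adjusted p = 0.406) and Cd79b at -0.28 (adjusted p = 0.370). Syk, Blnk, Pik3ap1 and Plcg2 turned to 0.14, 0.05, 0.07 and 0.11 (first transcripts) in this fit. In it 0 of 16608 transcripts passed (2242 at an unadjusted p under 0.05).

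Of 15 erythroid markers tested, Hba-a1, Hbb-b1 (globins) and Alas2 (heme synthesis) rose, by log2 values of 1.20, 1.16 and 1.15 (limma adjusted p = 0.0156, 0.0170 and 0.00960). Under quantile normalization Hba-a1 stood at 0.13 and did not pass (adjusted p = 0.221), and Hbb-b1 stood at 0.72 and passed (adjusted p = 0.0354). The other 12 did not pass, all 15 had values above 0 and the median was 1.31. Their sum was 6377.4 to 9975.9 FPKM in TTPΔARE and 2686.0 to 4916.7 FPKM in WT. WT replicate 3, with the highest mean log2 erythroid level of its group (4.43, against 2.66 to 3.67 in the other WT and 4.09 to 5.14 in TTPΔARE spleens), also had the lowest Cd79a, Cd79b, Ms4a1 and Btk levels of the WT spleens. By summed level, which the globins dominate, it stood at 3038.4 FPKM, inside the range of the other WT spleens. The lowest WT levels of Syk, Blnk, Pik3ap1 and Plcg2 were in WT replicate 1, whose mean log2 erythroid level was 2.78. For Lyn the lowest was in WT replicate 4 (NM_001111096) or WT replicate 3 (NM_010747). A relation between these levels was not tested. With the erythroid mean as a covariate, Cd79a stood at -0.19 (limma adjusted p = 0.613), Cd79b at -0.18 (adjusted p = 0.699) and 0 of 16608 transcripts passed (1472 at an unadjusted p under 0.05).

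**Figure D3:**
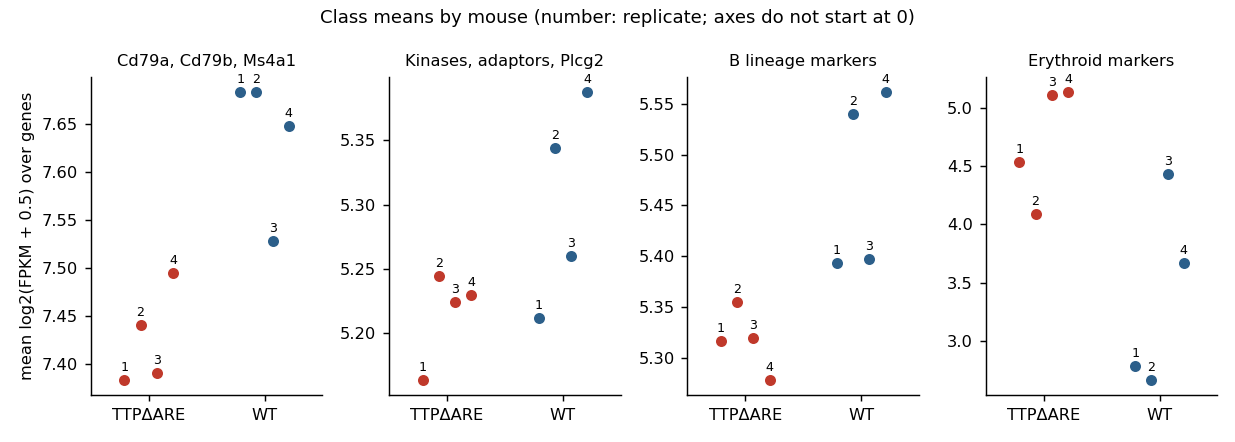
Mean log2(FPKM + 0.5) per mouse (y axes, which do not start at 0; numbers are replicates) over Cd79a, Cd79b and Ms4a1, over the other 6 genes, over B lineage markers and over erythroid markers. The means over the surface proteins and over the B lineage markers do not overlap between TTPΔARE and WT. Those over the other 6 genes and over the erythroid markers do. Taken singly, 1 of the 3 surface protein genes (Cd79a) and 4 of the 14 B lineage markers lay lower without overlap, against 5.99% of all transcripts tested.

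Markers of other cells that can express the kinases were read too. Of 7 genes listed as monocyte markers 3 fell (Lyz2 -0.49, Ace -0.75 and Nr4a1 -0.38, log2), and these are not taken as specific to monocytes. The 7 summed to 504.9 to 540.4 FPKM in TTPΔARE and 638.3 to 840.4 FPKM in WT, sums in which Lyz2 alone averaged 462.4 FPKM in TTPΔARE and 652.5 FPKM in WT. The other 4 did not pass and lay in both directions (Ly6c2 0.25, Ccr2 0.26, Treml4 0.09 and Cx3cr1 -0.23, log2). Of 12 macrophage markers 1 rose (Emr1, log2 0.36; sums 805.5 to 915.2 FPKM in TTPΔARE and 632.3 to 894.8 FPKM in WT), and of 12 neutrophil markers 2 rose (Mmp8 and Retnlg, log2 1.17 and 0.90; sums 158.7 to 276.0 FPKM in TTPΔARE and 111.6 to 304.8 FPKM in WT). Dendritic cell markers rose in 4 of 11 (Flt3, Xcr1, Itgae and Esam, log2 0.33 to 0.56, sums 74.3 to 84.2 FPKM in TTPΔARE and 60.4 to 70.8 FPKM in WT). NK cell markers rose in 1 of 8 (Klra8, log2 0.80, adjusted p = 0.0499 by limma, a call lost in 9 of 11 processing alternatives; sums 59.9 to 107.3 FPKM in TTPΔARE and 42.2 to 68.4 FPKM in WT) and platelet markers in 2 of 8 (Itgb3 and Treml1, sums 63.3 to 105.2 FPKM in TTPΔARE and 45.6 to 88.2 FPKM in WT). Plasma cell markers fell in 1 of 10 (Txndc5, log2 -0.61; sums 288.2 to 342.9 FPKM in TTPΔARE and 299.3 to 633.5 FPKM in WT). Of 11 T cell markers 0 passed by limma, with 5 at an unadjusted p under 0.05 (sums 195.6 to 230.6 FPKM in TTPΔARE and 219.3 to 240.6 FPKM in WT). Of these 5, Cd3d, Cd4, Cd6 and Tcf7 were lower and Cd8a was higher. Over all 12410 symbols tested, 21.8% had such a p, in either direction. The T cell median was -0.10, with 7 of the 11 values below 0. The calls of Hba-a1, Hbb-b1, Emr1, Lyz2, Nr4a1, Mmp8, Retnlg, Flt3, Xcr1, Klra8, Treml1 and Txndc5 were each lost without at least 1 spleen, TTPΔARE replicate 3 or 4 among them. No marker was at 0 in every spleen, and the part of these cells in the levels of the 9 genes was not tested.

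Around the 9 genes, the rest of the pathway had values in both directions and few calls. Of 84 listed genes 77 were tested, and 3 fell and 1 rose, against 1.91% of 12410 symbols that passed as lower and 2.26% as higher. The median of the 77 was -0.02.

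Cd81, a tetraspanin that is also widely expressed outside B cells, stood at 84.9 ± 2.79 FPKM in TTPΔARE and 69.3 ± 7.83 FPKM in WT (SD, n = 4 each; log2 0.30) and did not pass (limma adjusted p = 0.0602), although every TTPΔARE spleen was above every WT spleen. The complement receptor Cr2, named after its values were seen, stood at 78.9 ± 8.65 FPKM in TTPΔARE and 63.6 ± 8.35 FPKM in WT (SD, n = 4 each; log2 0.31) and did not pass (limma adjusted p = 0.121).

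Of 15 inhibitory receptors and phosphatases tested, Cd22 fell and 14 did not pass, with a median of -0.09. Cd22, a sialic acid binding receptor whose tail is phosphorylated by Lyn, had 38.3, 44.1, 36.0 and 37.0 FPKM in TTPΔARE replicates 1 to 4, against 52.2, 57.9, 57.3 and 63.6 FPKM in WT replicates 1 to 4 (log2 -0.57, limma adjusted p = 0.00574). The groups were separate, and the call held without any 1 spleen. With the B lineage mean as a covariate, a fit in which 0 of 16608 transcripts passed, it stood at -0.37 (limma adjusted p = 0.245).

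Of 29 other kinases and adaptors tested, Lat2 and Tec fell and 27 did not pass, with a median of -0.02. Lat2 (NTAL), a membrane adaptor phosphorylated after receptor engagement, stood at 8.95 ± 1.10 FPKM in TTPΔARE and 12.9 ± 0.624 FPKM in WT (SD, n = 4 each; log2 -0.51, limma adjusted p = 0.00935), and the call held without any 1 spleen. With the B lineage mean as a covariate, a fit in which 0 of all transcripts passed, Lat2 stood at -0.53 (limma adjusted p = 0.218). Tec, a kinase related to Btk, stood at 4.05 ± 0.467 FPKM in TTPΔARE and 5.24 ± 0.336 FPKM in WT (log2 -0.34, limma adjusted p = 0.0438), and its call was lost without each spleen except TTPΔARE replicate 2.

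Of 29 genes downstream, in the calcium, NF-κB and MAP kinase branches, 1 rose, 0 fell and 28 did not pass, with a median of -0.02. Nfatc2, a calcium-dependent transcription factor that T cells also use, stood at 3.17 ± 0.261 FPKM in TTPΔARE and 2.43 ± 0.199 FPKM in WT (SD, n = 4 each; log2 0.32, limma adjusted p = 0.0426), and the call was lost without each spleen except TTPΔARE replicate 4. Named after its values were seen, Prkcb, a protein kinase C gene of the NF-κB branch, differed by -0.31 on the log2 scale, short of the threshold (limma adjusted p = 0.0535).

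Of 7 listed genes of the pre-B cell receptor and of recombination, 6 were found and 1 reached the level needed for the test. Vpreb3 had 9.62 ± 0.773 FPKM in TTPΔARE and 12.0 ± 1.29 FPKM in WT (SD, n = 4 each; log2 -0.30, limma adjusted p = 0.0699). Igll1 was listed at 0 in all TTPΔARE spleens and at 0 to 0.0406 FPKM in WT spleens, and Rag1, Rag2, Vpreb1 and Dntt were at most 0.459 FPKM in any spleen.

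**Figure D4:**
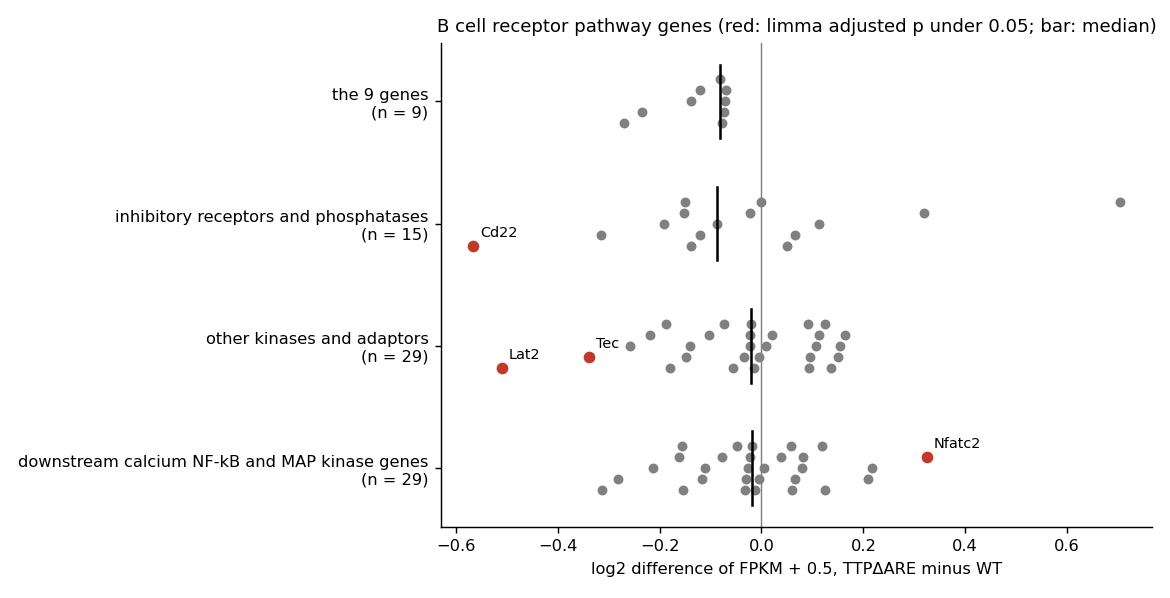
Log2 difference of FPKM + 0.5, TTPΔARE minus WT (x axis), for the 9 genes and for 3 lists of pathway genes (y axis; lists with fewer than 4 genes tested are left out), each point 1 gene and each bar a median. Red points passed an adjusted p of 0.05 by limma: Cd22, Lat2 and Tec at -0.57, -0.51 and -0.34, and Nfatc2 at 0.32.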

How the data were processed

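The authors deposited 1 FPKM value per RefSeq transcript and spleen. Alignment used BWA and the mm10 build, as the submitters' processing notes list. How fragments were counted, on which annotation and strand, and how reads matching several places were treated is not stated in the sources used here. As an estimate of depth, the depth was sought at which most values up to 0.1 FPKM become whole fragments: 64.7 to 68.4% did, within 0.1 of a fragment, against 16.2 to 16.7% at the median over depths tried. Fragment counts were not rebuilt and no count model was used.

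Groups are the genotype labels, and replicates were numbered in accession order. The tests ran in limma 3.58.1 (R 4.3.3; variance trend, two-sided) on log2 values of FPKM plus 0.5 for the 16608 transcripts averaging 0.5 FPKM or more, with Benjamini-Hochberg adjustment over all of these, a threshold of 0.05 and differences given as TTPΔARE minus WT. This scale understates the change of low transcripts. Lists used the most abundant transcript of a symbol and are described by counts and medians. The members and lists were chosen with earlier results of these data known. Named are all member transcripts, every listed pathway gene or marker that passed, otherwise the 2 most abundant genes of a pathway list, and the 3 symbols most like each member by Pearson r. Alternatives were other pseudocounts, filters, scalings and variance models, 1 transcript per symbol, erythroid or B lineage marker means as covariates, and leaving out each spleen. The limma script was tested on simulated data, where it recovered 58% of 50 transcripts changed 1.3-fold, the smallest change tried. Of its 167 calls there, 7.19% were false. No member reached a fitted difference of 1.3-fold, so a member that did not pass is not shown to be unchanged. Some listed genes are counted but not reported here by name.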

Additional observations from a re-analysis of the deposited data

How the results depend on the processing

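Of the 11 member transcripts 0 passed as reported and 1 passed under 5 of 19 alternatives. Cd79a passed with a pseudocount of 0.1 FPKM (adjusted p = 0.0489), a mean of at least 1 FPKM (0.0480) and a robust variance (0.04997), and Cd79b passed with quantile normalization (log2 -0.22, adjusted p = 0.0498) and without WT replicate 3 (0.0453). Leaving out each spleen in turn gave 0 to 1 calls, a log2 of -0.25 to -0.20 for Cd79a and of -0.32 to -0.24 for Cd79b, and of -0.15 to -0.08 for the difference between surface proteins and the other 6 genes.

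With the erythroid marker mean as a covariate, 0 transcripts and 0 pathway genes passed, the class difference was -0.046 and Zfp36 stood at 0.27 (adjusted p = 0.571). With the B lineage marker mean, 0 transcripts and 0 pathway genes passed, the class difference was -0.21, Zfp36 stood at 0.27 (adjusted p = 0.414), and signs turned for Syk NM_001198977 (0.14), Syk NM_011518 (0.11), Blnk (0.047), Pik3ap1 (0.071) and Plcg2 (0.11). Both covariates differ between the groups, and the cause of the lost calls was not tested. Otherwise the 11 member transcripts kept their sign in all settings run. The 664 transcripts called became 197 to 714 when a spleen was left out (197 without TTPΔARE replicate 3, 254 without TTPΔARE replicate 4, 250 without WT replicate 4), pathway calls 2 to 6, and Zfp36 0.34 to 0.45. Without a filter on low values 2 pathway genes passed, with more transcripts tested. No paired analysis was possible because the labels give no number shared between the genotypes. Depth is estimated, so counting errors are approximate.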
